A study of Mus musculus with 3 samples.

Results

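Kupffer cells on a chow diet were described from 2537 cell barcodes of 1 library. These were the barcodes with at least 1000 UMIs (unique molecular identifiers, 1 per captured RNA molecule), at least 300 genes, at most 10% of UMIs from mitochondrially encoded genes, and a share K of at least 1%. K is the share of a barcode's UMIs that came from Clec4f, Cd5l, C1qa, C1qb and C1qc. Of 2767 chow barcodes that met the first 3 limits, 2537 met the limit on K and 230 did not, and 9842 barcodes met the first 3 limits over the 3 libraries of the study.

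The study sequenced 3 male mice aged 8 weeks: 1 on chow, and 2 fed a liquid diet of the Lieber-DeCarli type that held 5% ethanol, 1 of them for 3 days and 1 for 10 days. Nonparenchymal liver cells were freed by perfusion, sorted for high F4/80 and intermediate CD11b, and made into 10x Genomics 3' v2 libraries. No allele or transgene is named for any group. Each diet had 1 mouse and 1 library, so no test between diets was possible, and mouse, library and diet cannot be told apart. The chow mouse was not fed the liquid diet, so an effect of ethanol and one of liquid feeding also cannot be told apart. The intervals given below are 95% intervals and cover counting error.

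Kupffer cells are macrophages that live inside the blood sinusoids of the liver. They take up particles, bacteria and worn-out red cells from portal blood, recycle the iron of haemoglobin, produce complement C1q, and degrade what they engulf in lysosomes. In mice, Clec4f (a C-type lectin receptor), Timd4 (a receptor for phosphatidylserine on dying cells) and Vsig4 (a receptor for complement C3 fragments) mark the resident population.

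The 3 libraries held 21650747 UMIs on chow, 21471782 at 3 days and 16538895 at 10 days. The labels state a yield of 3000 to 5000 cells per sample. On chow 3030 barcodes reached 1000 UMIs, of which 29 had under 300 genes and 234 had over 10% mitochondrial UMIs. The Kupffer barcodes had a median of 4675 UMIs and 1894 genes on chow, 3117 UMIs and 1468 genes at 3 days, and 3080 UMIs and 1478.5 genes at 10 days, where the same rule kept 3820 and 2724 barcodes. Median mitochondrial shares were 5.23% on chow, 5.18% at 3 days and 6.42% at 10 days. Kupffer barcodes of chow shared 16 barcode sequences with those at 3 days and 7 with those at 10 days, those of 3 and 10 days shared 17, and no barcode sequence was found in all 3.

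The limit on K fell in a sparsely filled part of its range. In the Kupffer barcodes K had a median of 2.36% (1.05 to 4.65%), against a median of 0.213% in the barcodes under the limit. Just inside the limit, at 1 to 1.2%, there were 16 barcodes, and just outside it, at 0.8 to 1%, there were 10. K used measured RNA, so the levels of its 5 genes describe the selection and are not a finding.

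**Figure D1:**
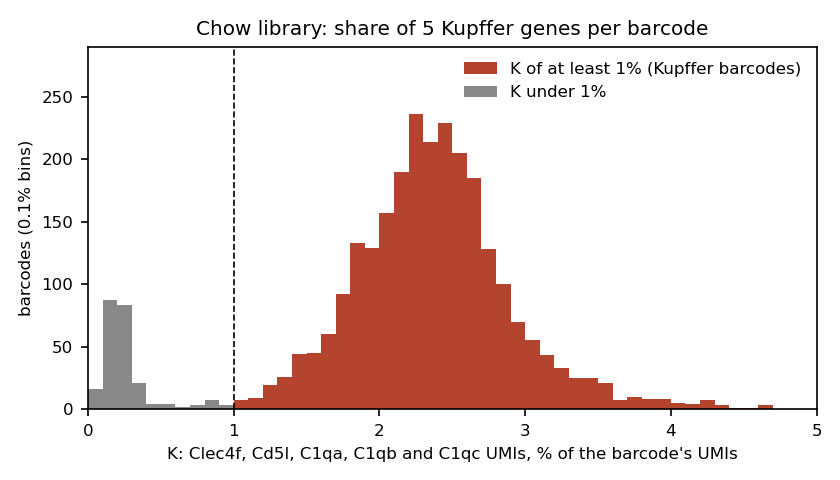
Number of chow barcodes (vertical axis, bins of 0.1%) by K, the share of UMIs from 5 Kupffer genes (horizontal axis, %), with the limit of 1% as a dashed line. The 230 barcodes under the limit form a peak near 0 and the 2537 Kupffer barcodes a peak at a median of 2.36%, with 10 barcodes at 0.8 to 1% and 16 at 1 to 1.2%.

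The label was set beside genes outside K. Vsig4 had 3233 CPM (counts per 1000000 UMIs) over all Kupffer barcodes (3202 to 3265, Poisson interval), against 278 CPM in the chow barcodes under the limit. Levels are counts of 3' tags, 1 per molecule, and are not divided by transcript length. All 28 listed Kupffer identity genes outside K reached 50 CPM, against 2882 of all 15178 genes with a UMI. The 28 include Csf1r, the receptor for the growth factor CSF1, at 2493 CPM, the iron exporter Slc40a1 at 3255 CPM, the ficolin Fcna at 1929 CPM, and Timd4 at 483 CPM. The sorted antigen F4/80 is encoded by Adgre1, which had 877 CPM, and CD11b by Itgam, which had 28.5 CPM. The 28 genes were chosen with levels known, and the barcodes under the limit by their low K. These values therefore describe the name and are no test of it. The word resting was not measured directly, and the values that touch it are given with the cytokine and cell cycle genes.

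Summed markers of other cells were lower than in the barcodes under the limit, except those of erythroid cells and platelets. The part of all these markers in the results below was not tested, except where a value without the barcodes carrying them is given. The summed level of 17 T and NK cell genes was 228 CPM in Kupffer barcodes and 7391 CPM in the barcodes under the limit. For 10 B and plasma cell genes it was 168 CPM and 10936 CPM, and for 13 sinusoidal endothelial genes 321 CPM and 2802 CPM. For 6 erythroid genes it was 294 CPM and 33.6 CPM, and for 5 platelet genes 79.9 CPM and 17.8 CPM. For 9 stellate and fibroblast genes it was 62.8 CPM and 72.0 CPM. A barcode was said to carry another type when defining markers made up at least 3 UMIs and 0.1% of its UMIs. By this count 403 Kupffer barcodes (15.9%, 14.5 to 17.4%, Clopper-Pearson interval) carried hepatocyte RNA, 78 (3.07%, 2.44 to 3.82%) T and NK cell RNA, 14 erythroid RNA, 13 neutrophil RNA, 9 endothelial RNA, 8 monocyte RNA, and 4 each B cell and dendritic cell RNA. The summed level of 25 hepatocyte genes was 1476 CPM in Kupffer barcodes, 2629 CPM in the barcodes under the limit and 3340 CPM in barcodes of 10 to 100 UMIs. Siglech of 12 dendritic cell genes, and Ly6g, Camp and Ngp of 10 neutrophil genes, had no UMI in Kupffer barcodes. None of the barcodes carried stellate cell RNA, with an upper Clopper-Pearson limit of 0.145%.

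Free RNA in the suspension resembled the Kupffer cells. In chow barcodes of 10 to 100 UMIs, Clec4f stood at 4441 CPM, against 4071 CPM in Kupffer barcodes, and across genes of at least 50 CPM the log2 levels of both had a correlation of 0.958. The 145 lymphocyte barcodes of the library (K under 1%, T and NK markers) therefore give the share of barcodes that holds a UMI of a Kupffer gene without belonging to a Kupffer cell. Clec4f had a UMI in 99.9% of Kupffer barcodes and 57.1% of lymphocyte barcodes, and Vsig4 in 99.7% and 28.6%, after every barcode was thinned to 2000 UMIs. Thinning kept 2332 Kupffer barcodes, leaving out 205, and 140 lymphocyte barcodes. Median depth before thinning was 4675 UMIs in all Kupffer barcodes and 3780 UMIs in all lymphocyte barcodes.

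The baseline RNA of the Kupffer barcodes was led by housekeeping transcripts, iron storage, apolipoproteins, C1q, antigen presentation and lysosomal proteases. The 12534618 UMIs of the 2537 barcodes came from 15178 genes, of which 2882 reached 50 CPM and 140 reached 1000 CPM. Counts of list genes at 50 CPM are to be set against that share, and the lists were chosen with levels known. The 10 most abundant genes held 13.7% of UMIs, the 100 most abundant 38.7% and the 1000 most abundant 71.1%. Mitochondrially encoded genes held 5.10% and ribosomal protein genes 14.0%. These classes and provisional symbols were left out of the ranking, which removed 7 mitochondrial and 11 ribosomal genes before the 30th named gene.

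The nuclear noncoding RNA Malat1 ranked first at 27457 CPM, followed by Tmsb4x, an actin-binding thymosin, at 23989 CPM. Apoe, the apolipoprotein that macrophages release with cholesterol, had 12504 CPM in Kupffer barcodes, against 1638 CPM in lymphocyte barcodes. Its neighbour on chromosome 7, Apoc1, had 5516 CPM. The ferritin light and heavy chains, which store iron, had 12338 CPM (Ftl1) and 7685 CPM (Fth1). Wfdc17, a small secreted protein with a whey acidic protein domain, had 9910 CPM in Kupffer barcodes and 1041 CPM in lymphocyte barcodes.

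The complement and uptake genes formed a second block. The 3 chains of C1q, encoded side by side on chromosome 4, had 5707 CPM (C1qa), 5418 CPM (C1qc) and 3937 CPM (C1qb). Cd5l, a secreted scavenger-receptor protein of macrophages, had 5263 CPM. Among other complement genes, properdin (Cfp) had 1244 CPM, C6 735 CPM and C4b 412 CPM, whereas C3 had 18.2 CPM. Of 18 genes on the complement list, 10 reached 50 CPM. Of 20 scavenger and uptake receptors 17 reached it, among them the dead-cell receptor kinase Axl at 864 CPM, the mannose receptor Mrc1 at 861 CPM, and Marco, a receptor for bacteria and particles, at 329 CPM.

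Antigen presentation was present at both classes. Cd74, the invariant chain that escorts MHC class II, had 7375 CPM, H2-Aa 2533 CPM, H2-Ab1 2392 CPM and H2-Eb1 1758 CPM. Pooled lymphocyte barcodes had a like level of Cd74, at 7988 CPM, but fewer of them held it. That pool was chosen for T and NK markers but was mixed. The immunoglobulin gene Igkc had 10436 CPM in it, with a UMI in 17.9% of its thinned barcodes. Which of its barcodes supplied Cd74 was not tested. After thinning, a Cd74 UMI was in 99.5% of Kupffer barcodes (99.1 to 99.7%) and 70.7% of lymphocyte barcodes (62.4 to 78.1%), and an H2-Aa UMI in 94.3% and 41.4%. For class I, B2m had 4203 CPM and H2-D1 2518 CPM. Of 9 class II genes 6 reached 50 CPM, and of 12 class I genes 10 did.

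Of 27 lysosomal genes 23 reached 50 CPM. Cathepsin B (Ctsb) led them at 6192 CPM, then prosaposin (Psap), the precursor of activators of sphingolipid breakdown, at 4417 CPM, cathepsin S (Ctss) at 3046 CPM and the asparaginyl protease legumain (Lgmn) at 2659 CPM. Together the 27 genes took 31696 CPM. Gpnmb, a lysosomal gene of lipid-laden macrophages, had 3 UMIs in all.

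Iron and haem genes beyond ferritin included Slc40a1 at 3255 CPM, the haem-degrading enzyme Hmox1 at 1569 CPM, biliverdin reductase B (Blvrb) at 536 CPM and the haemoglobin receptor Cd163 at 543 CPM. Hamp, the hormone hepcidin that hepatocytes make, had 1.28 CPM. Among lipid genes, lipoprotein lipase (Lpl) had 1492 CPM and the fatty acid-binding protein Fabp7 772 CPM. Of 25 lipid genes 17 reached 50 CPM, and Ch25h had no UMI.

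Most cytokine and chemokine RNAs were low, with a few exceptions. Ccl6 had 881 CPM, Ccl24 503 CPM, Il1b 296 CPM and Cxcl13 261 CPM. Of 28 inflammatory genes, 9 reached 50 CPM, against 2882 of all 15178 genes with a UMI, so the list was not low as a whole. Tnf had 6.14 CPM in Kupffer barcodes and 8.24 CPM in lymphocyte barcodes, a level not read here as free RNA. Il6 had 7.82 CPM. Nos2 and Cxcl1 had no UMI, with an upper Poisson limit of 0.294 CPM. Cxcl9 and Cxcl10, chemokines induced by interferon, had 33.7 and 33.4 CPM, with a UMI in 2.02% and 3.64% of thinned Kupffer barcodes and in 4.29% and 2.14% of lymphocyte barcodes.

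Cell cycle genes differed in level. Of 23 proliferation genes, 5 reached 50 CPM, against 2882 of all 15178 genes with a UMI. Together the 23 took 1506 CPM. H2afz had 381 CPM, whereas Mki67 had 13.1 CPM and Top2a 25.2 CPM. By defining markers, 45 of the 2537 barcodes (1.77%, 1.30 to 2.37%) carried proliferation RNA. Those defining markers, like those of the other types, were chosen from longer lists with levels known, and H2afz is not among them.

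**Figure D2:**
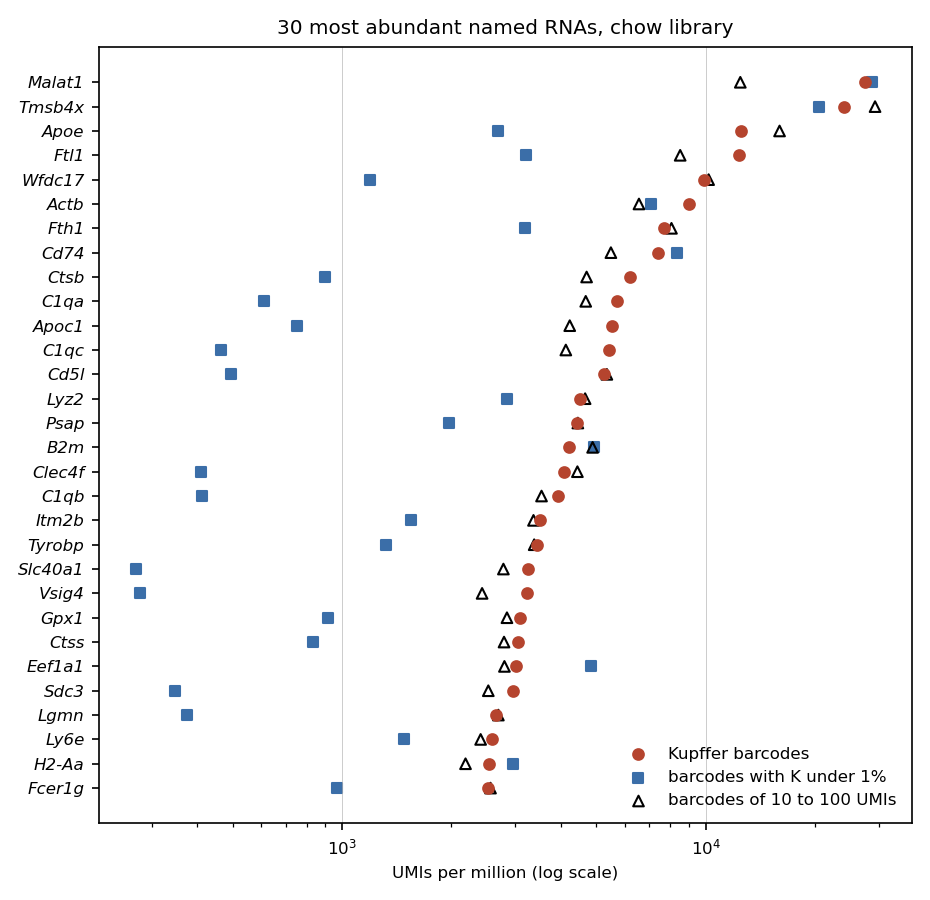
Level (CPM, log scale) of the 30 most abundant named RNAs in chow Kupffer barcodes (filled circles), chow barcodes with K under 1% (squares) and chow barcodes of 10 to 100 UMIs (triangles). Triangles lie near the circles for most genes. Squares lie far to the left for genes such as Vsig4 (3233 against 278 CPM), which is outside K. They do so for Clec4f (4071 against 410 CPM) in part by the rule, because Clec4f counts towards K.

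Barcode-to-barcode spread was measured as excess CV. This is the square root of the variance beyond Poisson counting noise, divided by the mean, on UMIs thinned to 2000 per barcode. It is 0 where the variance does not exceed the mean, and a value of 1 means that the spread beyond counting equals the mean. Among 703 genes of at least 200 CPM the median was 0.32, 31 genes had a variance at or under the mean, and 73 genes (10.4%) reached 0.5. At the wider limit of 50 CPM, 744 of 2882 genes (25.8%) reached it. Genes near that lower limit had few UMIs per barcode, so the share past 0.5 there was more open to sampling error and the 200 CPM set is used below.

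Clec4f, Vsig4 and C1qc varied little from barcode to barcode, while Marco, Tmsb10, Cxcl13 and Atp1b3 had most of their UMIs in a minority of barcodes. Hmox1 varied over most barcodes, and the class II genes varied together. The 15 genes named for spread were the highest among genes of at least 200 CPM. With a minimum of 20 CPM in its place, 0 of these 15 were among the 15 highest. Gm42418, left out of the naming for its provisional symbol, had an excess CV of 1.91 at 1613 CPM.

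Several genes of K and of the identity list had little spread. C1qc had an excess CV of 0.18 on chow, 0.17 at 3 days and 0.16 at 10 days. Clec4f had 0.23, 0.22 and 0.23 in the same order, and Vsig4 had 0.28, 0.27 and 0.26. C1qb was less even than its partner chains, at 0.48, 0.50 and 0.43. The limit on K removes barcodes low in all 5 of its genes, so their evenness is in part set by the rule. Timd4 was also even, at 0.19 on chow, 0.39 at 3 days and 0.26 at 10 days. A Timd4 UMI was seen in 61.8% of thinned Kupffer barcodes, a Poisson count of the same mean would give 62.2%, and lymphocyte barcodes had 7.86%. The barcodes with no Timd4 UMI were thus about as many as counting at this depth leaves.

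The lists differed in how many of their members were uneven. Of 19 lysosomal genes of at least 200 CPM 0 reached an excess CV of 0.5 (list median 0.30, against 0.32 over all 703), and so did 0 of 17 nuclear oxidative phosphorylation genes (median 0.28) and 0 of 6 class I genes (median 0.27). Against the 10.4% of all genes, 5 of 23 identity genes reached it (median 0.41), 1 of 8 complement genes (C4b, 0.67), 2 of 13 scavenger receptors (Marco and Cd163) and 2 of 8 haem and iron genes (Hmox1 and Cd163). At the other end were 5 of 6 class II genes (median 0.64), 6 of 6 immediate-early genes (median 0.76), 5 of 6 inflammatory genes (median 0.69), 3 of 3 proliferation genes (median 0.67) and 4 of 10 lipid genes (median 0.47). These lists were chosen with levels of these data known, and no test of a list was made.

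**Figure D3:**
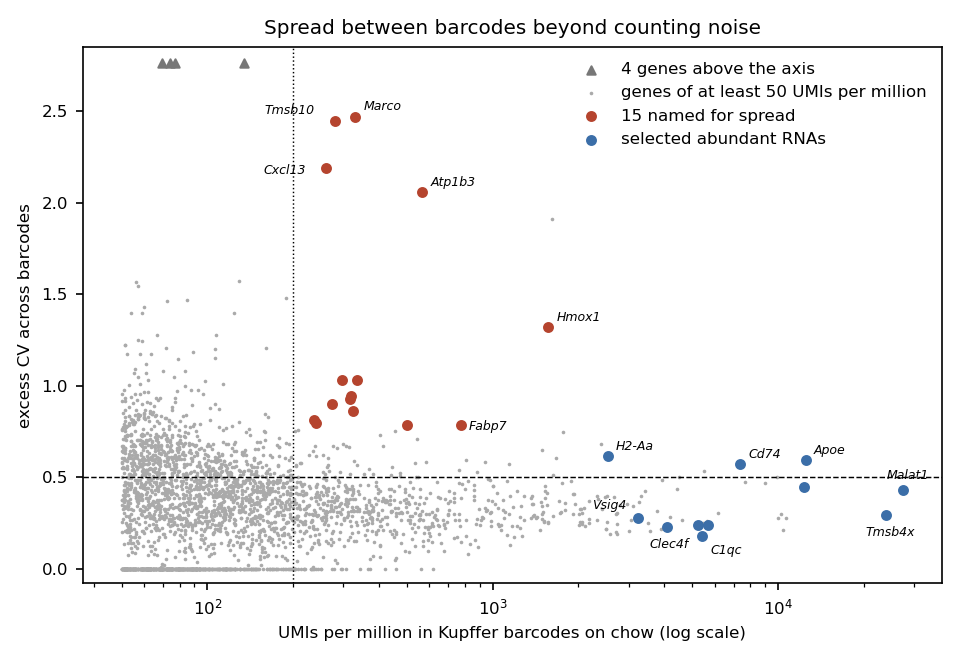
Excess CV across chow Kupffer barcodes (vertical axis) against level (horizontal axis, CPM, log scale) for genes of at least 50 CPM, with lines at 0.5 and at 200 CPM. Triangles at the top stand for 4 genes above the axis limit of 2.8. The 15 genes named for spread are red, led by Marco at 2.47, and C1qc (0.18) and Clec4f (0.23) lie low among the abundant RNAs in blue.

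Of the genes eligible for naming, Marco had the largest excess CV, 2.47 on chow, and 2.35 and 1.93 at 3 and 10 days. On chow 27.7% of thinned Kupffer barcodes held a Marco UMI (25.9 to 29.6%), where a Poisson count of the same mean would give 48.2%, and 9.29% of lymphocyte barcodes held one. The 10% of barcodes highest in Marco held 69.2% of its UMIs, up to 29 in 1 barcode, and 72 barcodes had at least 5. Barcodes with at least 5 made up 3.09% on chow, 4.05% at 3 days and 7.17% at 10 days. The median mitochondrial share of the 72 barcodes was 5.59% and their median depth 4387 UMIs, against 5.15% and 4905 UMIs in all 2332.

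Barcodes rich in Marco had less RNA of class II and Apoe and more of Hmox1 and Lpl. In counts thinned to 2000 UMIs, the 4 main class II genes together (Cd74, H2-Aa, H2-Ab1 and H2-Eb1) had 14274 CPM in the 1685 chow barcodes with no Marco UMI, 11465 CPM in the 575 with 1 to 4, and 8917 CPM in the 72 with at least 5. Apoe had 12610, 9991 and 8604 CPM in the same order, Hmox1 had 1552, 1941 and 2910 CPM, and Lpl 1493, 1816 and 2174 CPM. The mean mitochondrial share was 5.21%, 5.55% and 5.75%, and its part in these levels was not tested. The order of class II levels was the same at 3 days, at 10735, 8940 and 7140 CPM, and at 10 days, at 9893, 8277 and 7446 CPM. Kupffer genes differed less on chow. Outside K, Vsig4 had 3392, 3390 and 3451 CPM and Timd4 485, 500 and 424 CPM. Clec4f had 4146, 3956 and 3903 CPM, but it counts towards K, so its evenness is in part set by the rule. At 10 days these genes differed more, with 3507, 3677 and 3341 CPM for Vsig4, 451, 454 and 599 CPM for Timd4, and 4218, 4098 and 3223 CPM for Clec4f. Correlations of single genes with Marco were weak on chow, at -0.19 for Cd74 and -0.20 for Apoe. After depth and mitochondrial share were regressed out, they were -0.17 and -0.18.

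Tmsb10, an actin-binding thymosin abundant in lymphocytes, had an excess CV of 2.45 on chow. It had 2313 CPM in the 75 thinned Kupffer barcodes that carried T and NK markers, against 142 CPM in the other 2257, and 7936 CPM in lymphocyte barcodes. Without those 75 barcodes its excess CV was 1.90. A separate run without barcodes carrying T and NK markers gave 2.18, so the size of the drop is uncertain. How much of the spread those barcodes held was not tested further. Marco was not higher in them, with 253 CPM in carriers, against 331 CPM in the others.

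Cxcl13, a chemokine that attracts B cells, had an excess CV of 2.19 on chow, 3.43 at 3 days and 3.56 at 10 days. Its UMIs were in 24.2% of thinned Kupffer barcodes and in 3.57% of lymphocyte barcodes, and 54 barcodes had at least 5. Of those 54, 1 was among the 72 rich in Marco, which is 1.85% of the Cxcl13 set, against 3.09% of all barcodes, and 1.39% of the Marco set, against 2.32% of all barcodes. With 1 shared barcode nothing is read from the difference. The median depth of the 54 was 6399 UMIs, against 4905 UMIs in all thinned barcodes.

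Atp1b3, a subunit of the sodium pump, had an excess CV of 2.06 on chow, 1.79 at 3 days and 1.92 at 10 days. On chow 126 barcodes (5.40%) had at least 5 Atp1b3 UMIs, up to 32, whereas the median barcode before thinning had 3.17 per 10000 UMIs. At 3 and 10 days 5.41% and 8.40% of barcodes had at least 5. The 126 chow barcodes had a lower median depth, 4136 UMIs against 4905 UMIs in all thinned barcodes. Their median mitochondrial share was 5.57%, against 5.15%. Barcodes rich in Atp1b3 made up 5.56% of those rich in Marco (4 of 72) and 3.70% of those rich in Cxcl13 (2 of 54), against 5.40% of all barcodes, shares near the background.

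Hmox1 was spread over more barcodes, with an excess CV of 1.32 on chow, 1.07 at 3 days and 1.06 at 10 days. A UMI was in 78.1% of thinned Kupffer barcodes and 17.9% of lymphocyte barcodes, and 503 barcodes had at least 5. In unthinned barcodes the 10th, 50th and 90th percentiles were 1.75, 8.64 and 48.7 UMIs per 10000. Of the 72 barcodes rich in Marco 27 (37.5%) had at least 5 Hmox1 UMIs, against 21.6% of all barcodes.

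The other genes of largest spread were Cd207 (langerin, a lectin encoded next to Clec4f) at 1.03, Il1b at 1.03, Marcksl1 at 0.94, the adhesion molecule Vcam1 at 0.93, and Dusp1 at 0.90. Then came Plac8 at 0.86, the transcription factor Junb at 0.81, the G-protein regulator Rgs1 at 0.79, and the eosinophil chemokine Ccl24 and Fabp7 at 0.78. In barcodes with at most 5% mitochondrial UMIs, Ccl24 had 0.48, under the limit of 0.5. Despite their shared locus, Cd207 and Clec4f had a correlation of -0.02. In 23 barcodes Cd207 reached 5 UMIs, and the same number did for Il1b. Il1b had a UMI in 38.2% of thinned Kupffer barcodes and 9.29% of lymphocyte barcodes, at 296 and 42.6 CPM. Plac8 was as frequent in lymphocyte barcodes, at 40.7% against 38.4%, so its share was not above that in barcodes of another cell type.

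At the even end, the 10 genes of lowest spread had a variance at or under the mean. They were Tma7, Saraf, Rab10, Tmem160, Snx3, Hmgb1, Mrpl52, Mrfap1, Ndufa6 and Tm9sf3, genes of translation, membrane traffic, chromatin and mitochondria among others. All 10 had between 203 and 458 CPM, where the excess CV is least precise, and each of the 10 had an excess CV above 0.1 in at least 1 ethanol library, up to 0.56 for Hmgb1 at 10 days.

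The uneven genes were largely uneven in the other mice too. Of the 73 genes past 0.5 on chow, 59 were past it at 3 days, 58 at 10 days and 52 in all 3 libraries. Over all 703 genes, 72 were past 0.5 at 3 days and 83 at 10 days. Vcam1 was an exception in level: it had 317 CPM on chow, 970 CPM at 3 days and 249 CPM at 10 days, with an excess CV of 0.93, 0.68 and 1.37.

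**Figure D4:**
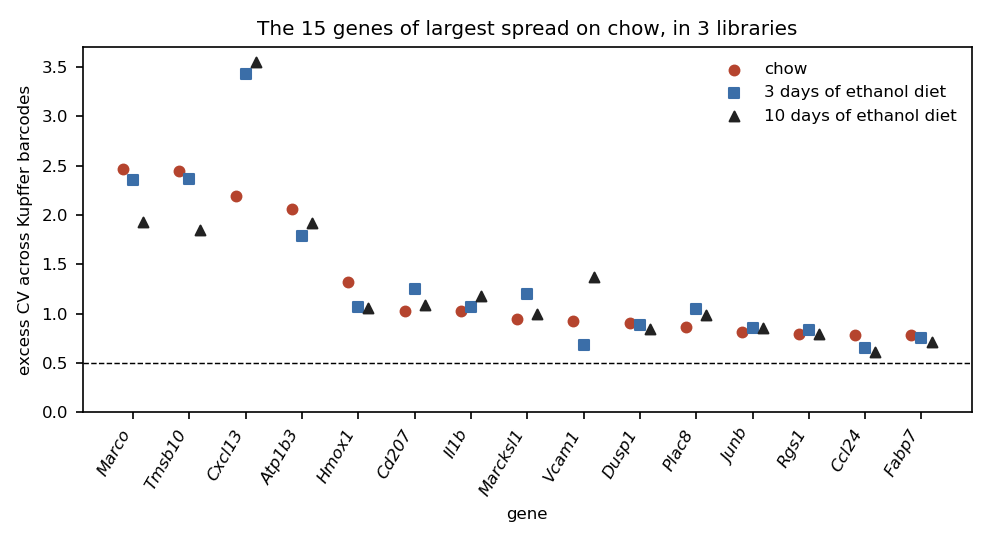
Excess CV across Kupffer barcodes (vertical axis) of the 15 most uneven chow genes in the libraries of chow, 3 days and 10 days of ethanol diet (1 mouse each), with a dashed line at 0.5. The 15 genes lie above the line in each library, and Cxcl13 differs most between libraries (2.19, 3.43 and 3.56).

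Co-expression was measured as Pearson's r across the 2332 thinned barcodes on log2(UMI + 1), over 246753 pairs of the 703 genes. It is a description without a p, because the barcodes come from 1 library and share depth and free RNA. Past 0.25 in either sign were 644 pairs (0.261%), 477 of them positive and 167 negative, and 257 had both genes mitochondrial or both ribosomal. The 644 pairs involved 100 genes. All 644 had the same sign at 3 and at 10 days, where 340 and 332 of them were past 0.25.

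Many of these pairs moved with depth and mitochondrial share. Although every barcode was thinned to the same total, r with log10 of a barcode's original UMIs was -0.54 for Psap, 0.54 for Ftl1, 0.52 for Tmsb4x, 0.45 for Tyrobp and 0.42 for C1qb. It was 0.19 for Cd74, 0.04 for H2-Aa and -0.07 for Marco. When depth and mitochondrial share were regressed out of every gene, 44 pairs were past 0.25 in place of 644. This setting was chosen after the data were seen, and whether the depth of a barcode reflects the size of the cell or its handling was not tested.

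The highest r were among class II genes, and the regression on depth and mitochondrial share changed them little. H2-Aa and Cd74 had an r of 0.61 on chow, 0.59 at 3 days and 0.55 at 10 days, and 0.61 after depth and mitochondrial share were regressed out. Cd74 with H2-Ab1 had 0.59, 0.59 and 0.53, and with H2-Eb1 0.57, 0.56 and 0.51. The 3 H2 genes had 0.54, 0.53 and 0.51 among themselves on chow. In chow barcodes of lower and of upper depth (1166 each, split at a median of 4905 UMIs), H2-Aa and Cd74 had 0.57 and 0.66. H2-DMb1 and H2-DMa, whose products load peptide on class II, had weaker r with Cd74, 0.19 and 0.17, at 275 and 389 CPM. Per barcode, the 9 class II genes took 0.517% of UMIs at the 10th percentile, 1.22% at the median and 2.49% at the 90th, and their summed level had an excess CV of 0.58. Cd74 lies on another chromosome than the H2 genes, which share a locus on chromosome 17.

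Promoters of H2-Aa and H2-Eb1 are shown because the class II genes moved together. No window is shown for Cd74 or H2-Ab1. In textbook accounts the X and Y boxes of class II promoters, bound by RFX and NF-Y, are where the coactivator CIITA acts, and Ciita itself had 15.1 CPM. RefSeq gives a promoter window of 300 bases (250 before to 50 after the gene start, GRCm38.p6) for H2-Aa at chr17:34287774-34288073 on the minus strand and for H2-Eb1 at chr17:34305617-34305916 on the plus strand. Both are printed 5′ to 3′ on the strand of the gene, with matches to CTNGCAAC (core of the X box) and CTGATTGG (core of the Y box) in capitals. The search covered both strands.
H2-Aa: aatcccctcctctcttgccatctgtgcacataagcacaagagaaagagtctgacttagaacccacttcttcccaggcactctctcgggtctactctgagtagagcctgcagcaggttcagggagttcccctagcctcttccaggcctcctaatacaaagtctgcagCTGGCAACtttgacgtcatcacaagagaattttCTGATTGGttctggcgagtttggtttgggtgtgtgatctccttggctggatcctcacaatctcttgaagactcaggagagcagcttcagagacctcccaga
H2-Eb1: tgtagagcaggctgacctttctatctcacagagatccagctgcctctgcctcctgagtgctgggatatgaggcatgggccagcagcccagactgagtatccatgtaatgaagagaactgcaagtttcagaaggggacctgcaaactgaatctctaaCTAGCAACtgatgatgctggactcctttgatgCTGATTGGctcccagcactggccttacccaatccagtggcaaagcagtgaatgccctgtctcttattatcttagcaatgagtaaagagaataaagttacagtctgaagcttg
The X core begins 84 bases before the start of H2-Aa and 94 before that of H2-Eb1, and the Y core 51 and 62 bases before it. Of 32851 RefSeq promoters of the same length 3.42% held the X core, 4.10% the Y core and 59 (0.180%) both. The motifs do not overlap. Not all class II windows held these letters: those of H2-DMa, H2-DMb1 and H2-DMb2 had neither core, and that of H2-Oa had the Y core alone. Outside class II, the window of Cd163 held the X core and that of Xlr the Y core. A match is a string of letters and says nothing of binding in these cells. Of 34 genes named for level or co-expression, 24 had an entry in the promoter table.

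A haem and iron pair also changed little under the regression. Hmox1, which breaks haem down, and Slc40a1, which exports the iron set free, had an r of 0.34 on chow, 0.33 at 3 days, 0.32 at 10 days, and 0.31 after depth and mitochondrial share were regressed out. It was the 1 gene past 0.25 with Hmox1. Both genes had a weak correlation with the ferritins: Hmox1 had -0.11 with Ftl1 and 0.03 with Fth1, while Ftl1 and Fth1 had 0.54 with each other. That ferritin pair had 0.42 after the regression.

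Apoe was the most connected of the 14 anchor genes examined, with 20 partners past 0.25 in either sign. Its highest were C1qb at 0.47, Cd74 at 0.42 and Lyz2 (lysozyme) at 0.42, and after the regression they were 0.38, 0.37 and 0.34. Apoc1, beside Apoe in the genome, had 0.32 with it. The lowest partner of Apoe was the mitochondrial gene mt-Co1 at -0.37. Apoe itself had r = 0.24 with log10 UMIs and -0.32 with mitochondrial share.

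The C1q chains had low r. Their excess CV was 0.24 for C1qa, 0.18 for C1qc and 0.48 for C1qb, against a median of 0.32 over the 703 genes. C1qa and C1qc had an r of 0.26 on chow, 0.19 at 3 days and 0.21 at 10 days, C1qa and C1qb had 0.25, 0.20 and 0.08, and C1qb and C1qc had 0.20, 0.16 and 0.05. When counting noise was taken out of the variances, the 3 pairs had 0.83, 0.67 and 0.65 on chow in the same order. The same correction gave 1.41 for Rpl41 with Gm10076, a value no correlation can take, so corrected values are rough. The chains count towards K, so the selection touches these values. Clec4f, Vsig4, Timd4, Marco, Cd163, Vcam1, Fos, Isg15, Mt1, Cd36 and Ccl6 had 0 partners past 0.25. Their highest were 0.17 for Clec4f (with Apoe), 0.24 for Vsig4 (with Ctsb) and 0.16 for Fos (with Dusp1, a phosphatase of the same early response). In sparse counts a weak r is no finding.

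**Figure D5:**
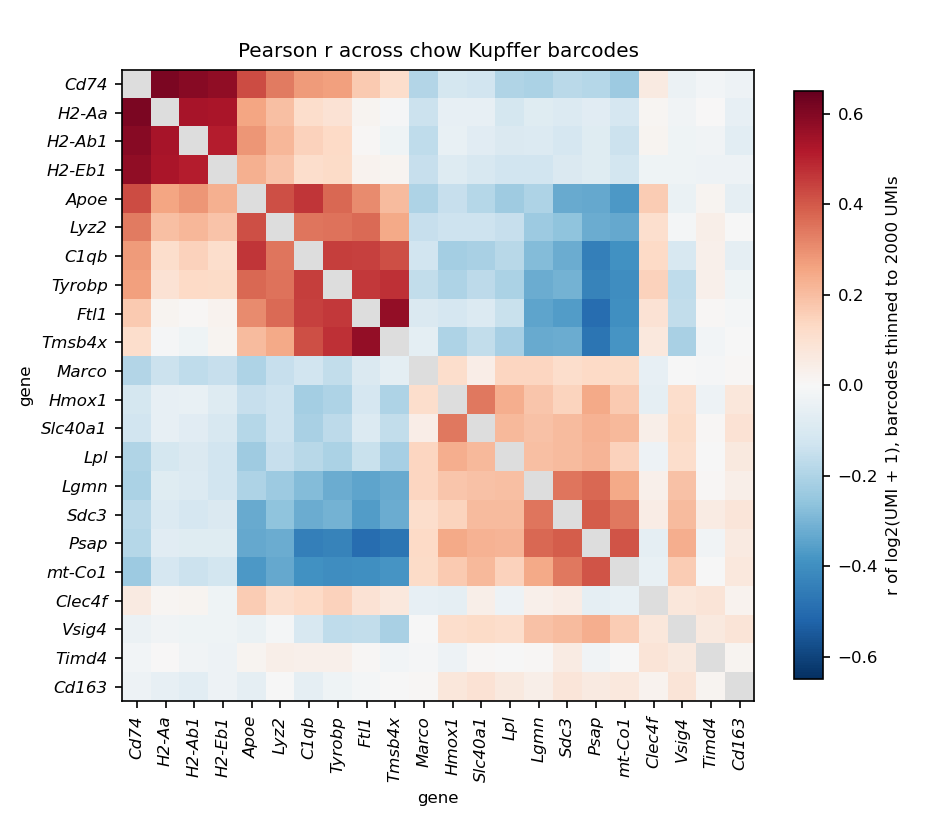
Pearson r (colour, blue negative, red positive) of log2(UMI + 1) across 2332 chow Kupffer barcodes thinned to 2000 UMIs, for selected genes on both axes, with the diagonal in grey. Cd74 and the H2 genes form a red block (up to 0.61), and Psap runs blue against Ftl1 (-0.49) and Tmsb4x (-0.47).

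The lowest r of all pairs were with Psap. Psap had -0.49 with Ftl1, -0.47 with Tmsb4x, -0.45 with C1qb, -0.44 with Tyrobp (an adaptor of immune receptors) and -0.41 with the ribosomal gene Rpl10. With these, 43 genes lay at or under -0.25 against Psap, 29 of them ribosomal, and 12 lay at or over 0.25, among them Sdc3 (a syndecan) at 0.39, Lgmn at 0.37, Ctsb at 0.37 and 3 mitochondrial genes. The longest annotated transcript had a median of 4048 bases in the nuclear genes of positive r, 987 bases in those of negative r, and 2149 bases over all genes with a length. In deeper barcodes Ftl1 was higher and Psap lower: Ftl1 had 14102 CPM in the barcodes of upper depth and 8605 CPM in those of lower depth, while Psap had 3633 and 6076 CPM. After the regression on depth and mitochondrial share, r of Psap with Ftl1 was -0.26. Within the barcodes of lower and of upper depth it was -0.38 and -0.31, so part of the contrast was present within each depth range. The part that depth, mitochondrial share and transcript length play was not tested further.

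Pairs of possibly near-identical copies are uncertain. Rpl41 and Gm10076, a gene with a provisional symbol, had an r of 0.45 on chow, and Rps27 and Rps27rt had 0.41. Where such copies share reads their counts cannot be told apart.

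Most of the abundant RNAs of chow were also the abundant ones in the ethanol mice. Of the 30 most abundant named RNAs on chow, 27 were among the 30 at 3 days and 24 at 10 days, with 24 in all 3. Past 1.5-fold with an interval excluding 1 were 0 of 30 at 3 days, against 3.06% of genes higher and 0.839% lower over all 3100 genes (3.9% either way). At 10 days 7 of 30 were lower and 0 higher, against 2.23% lower and 4.66% higher over 3134 genes (6.89% either way). The 7 were Ftl1, Fth1, Cd74, Lyz2, C1qb, Tyrobp and Fcer1g, an Fc receptor subunit. The median ratio of the 30 to chow was 0.893 at 3 days and 0.805 at 10 days. The 30 were chosen for a high level on chow, which by itself favours ratios under 1. How far this choice shaped the counts and the median ratios was not tested. Scaling by the median of ratios moved all genes by -0.03 and -0.04 on the log2 scale.

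C1qb, whose level is part of K and so touched by the selection, had the lowest ratio to chow of the 30 at 10 days. It had 3937 CPM on chow, 2801 CPM at 3 days and 2236 CPM at 10 days, a ratio of 0.568 at 10 days (0.559 to 0.577). Cd74 had 7375, 5412 and 4826 CPM in the same order. Ftl1 had 12338, 9669 and 8165 CPM. Within the chow library its level was higher in deeper barcodes, and median depth was lower at 3 and 10 days. Clec4f had 4071, 4004 and 4078 CPM and did not reach 1.5-fold. Psap, of the opposite sign to Ftl1 with depth, had 4417, 5777 and 6465 CPM, a ratio of 1.46 at 10 days, just inside 1.5. Whether the depth difference of the libraries carries any of these ratios was not tested, and the groups have 1 mouse each.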

How the data were processed

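The deposited matrices hold raw UMI counts per gene and barcode. Cell Ranger 2.2.0 and the genome names GRCm38 and mm10 stand in the submitters' processing notes, and the annotation release is not given in the sources used here. Members, lists and tests were chosen with earlier results of these data known.

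Members were chosen by the stated limits. Counts were summed over barcodes and divided by their total (CPM), with exact Poisson, Clopper-Pearson (shares) or conditional binomial (ratios) 95% intervals. Spread and correlation were computed on counts thinned to 2000 UMIs per barcode with numpy 2.4.6, scipy 1.17.1 and pandas 2.3.3, after the scripts were tested on simulated data. With 1 library per diet no test between groups was made. Doublets were not removed, and removing the 4% of barcodes with the highest Scrublet score (scanpy 1.11.5) was an alternative. Named genes were the 30 of highest level, 15 of highest and 10 of lowest spread, 15 pairs of highest and 5 of lowest r, 3 partners for each of 14 anchors, and examples from 27 lists. Mitochondrial, ribosomal, provisional, hepatocyte and erythroid genes were left out of the rankings by level and spread. Genes outside these rules (Gpnmb, Itgam, H2-DMa, Rps27rt and others in the text) were named after their values were seen.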

Additional observations from a re-analysis of the deposited data

How the results depend on the processing

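No paired analysis was possible because each group has 1 replicate, and for the same reason no replicate could be left out. The number of Kupffer barcodes was 1098 at a mitochondrial limit of 5% and lay between 1973 and 2739 under the other limits tried on UMIs, mitochondrial share, K and doublets. The number of genes with excess CV of at least 0.5 was 2069 for genes of at least 20 CPM, 73 for genes of at least 200 CPM and 415 on unthinned counts. With a naming minimum of 20 CPM, 0 of the 15 genes named for spread were among the 15 highest. The number of pairs past 0.25 was 388 at 1500 UMIs per barcode, 192 at a mitochondrial limit of 5%, 44 after regression on depth and mitochondrial share and 5654 on unthinned values, which share depth. With a minimum of 10 CPM or none, 395 and 958 genes were past 1.5-fold at 3 days, and 537 and 1219 at 10 days. Of the 105 recomputed excess CVs of named genes 104 stayed within 1.5 times their value, the exception being Ccl24 at a mitochondrial limit of 5% (0.48, against 0.78), and of 180 recomputed r of named pairs 159 moved by at most 0.1. No value changed sign. Where no reason is given, the cause was not tested. The 200 CPM limit, the regression and the settings without T and NK carriers were chosen after the data were seen.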
